A study of Fragaria vesca with 3 samples.

Results

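Laccases and class III peroxidases are secreted oxidases of the plant cell wall. Laccases are copper enzymes that use oxygen and class III peroxidases are haem enzymes that use hydrogen peroxide, and both turn monolignols into radicals that couple into lignin. Peroxidases can also cross-link wall proteins and phenolics. Their genes were examined here for DNA binding by FvSEP3, a MADS-domain transcription factor of the SEPALLATA class, whose relatives act in flower development and, in strawberry, in fruit ripening.

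Binding was measured by DNA affinity purification sequencing (DAP-seq). A protein produced in vitro is mixed with sheared genomic DNA, and the fragments that stay on it are sequenced. The DNA was taken at 30 days post anthesis from fruit of the wild-type woodland strawberry, Fragaria vesca, and 3 libraries were made, 2 of them immunoprecipitation (IP) replicates and the other an input control. All groups shared the same genotype, tissue and age, so nothing was compared between treatments. The assay uses naked DNA, so it reads which fragments the protein can bind and not what is bound in the fruit.

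Members were chosen by words in the deposited gene descriptions, laccase or peroxidase but neither ascorbate nor glutathione, in either IP list. The rule found 43 genes, 18 described as laccases and 25 as peroxidases, of 18238 genes with any peak. The descriptions are those of RefSeq proteins, and class III peroxidase is read from names of the type peroxidase 17. The files held no protein sequence against which to check that class. Genes with no peak are in no list, so the 43 are not the whole of either family. Each peak has a fold enrichment, the authors' ratio of signal to background, and a −log10 q-value from the peak caller. Across all genes the fold enrichment had a median of 3.05 among 19298 replicate 1 peaks and of 3.004 among 21823 replicate 2 peaks. Sequencing depth is unknown, since no file gave read counts. Coordinates are those of the deposited lists, on Fvb chromosomes of a build not named in the sources used here. Where a peak is given by a pair of values or intervals, the first is of replicate 1 and the second of replicate 2.

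Laccase and peroxidase genes were found in both lists in 20 of 43 cases (46.5%), and over all genes the share was 62.8%. A peak was taken as shared where a replicate 1 peak and a replicate 2 peak of the same gene overlapped by at least 1 bp. Shared peaks were found for 19 of the 43 members (44.2%), and over all genes for 58.6%. The authors' merged list held 19 members (44.2%), and over all genes 58.3%. By family, 7 of 18 laccases (38.9%) and 12 of 25 peroxidases (48.0%) had a shared peak. These shares are a description and were not tested, and with so few genes a small number of members moves them by several percentage points. Counted by peak, 22 of the 34 member peaks in replicate 1 (64.7%) overlapped a replicate 2 peak, where 70.5% of all replicate 1 peaks did. In the other direction 22 of the 39 member peaks in replicate 2 (56.4%) overlapped a replicate 1 peak, where 62.0% of all replicate 2 peaks did. The genes in a single list fell differently in the families, a split that was not tested. Of the laccases, 7 were in replicate 1 only and 4 in replicate 2 only, whereas 2 peroxidases were in replicate 1 only and 10 in replicate 2 only. Over all genes the numbers were 2700 in replicate 1 only and 4085 in replicate 2 only.

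The shared peaks of the members were about as strong as those of other genes. The 22 overlapping pairs had a median fold enrichment, averaged over both replicates, of 3.14, and over all 13515 such pairs it was 3.13. The median −log10 q of the members' shared peaks was 10.1 in replicate 1 and 11.2 in replicate 2, and over all genes it was 10.2 and 11.1. Ranked within its own list and averaged over both, the median member pair stood at the top 43.7%, where the median of all pairs stood at the top 44.7%. The highest member values were 4.22 in replicate 1 and 4.07 in replicate 2, and the lists themselves reached 7.21 and 7.56. Member peaks with no shared partner were weaker, with a median −log10 q of 8.06 in replicate 1 and 9.39 in replicate 2. Over all genes such peaks had medians of 8.30 and 8.80.

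**Figure D1:**
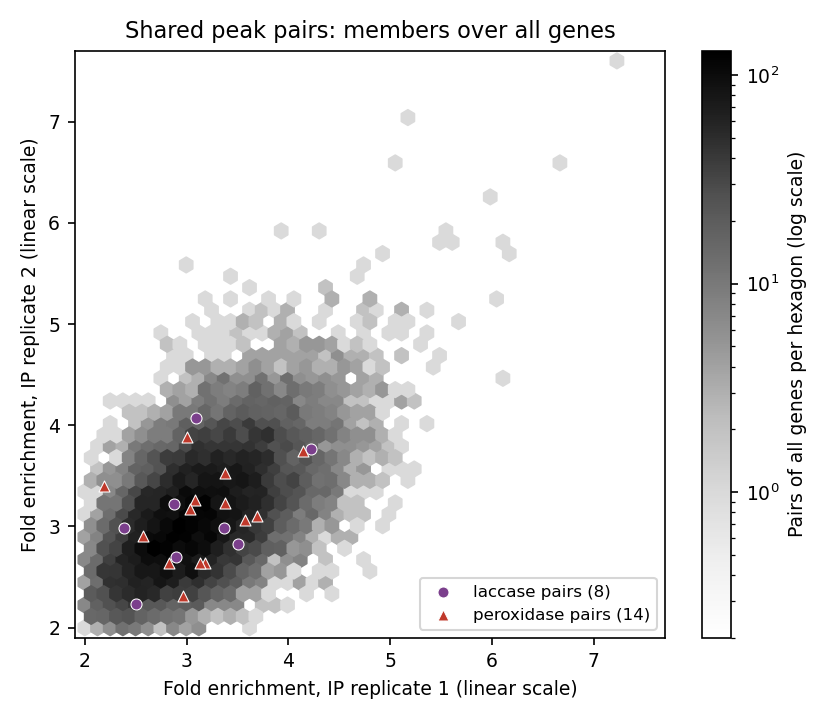
Fold enrichment of shared peak pairs, with IP replicate 1 on the horizontal axis and IP replicate 2 on the vertical axis, both linear. Circles are the 8 laccase pairs, triangles the 14 peroxidase pairs and grey hexagons count the 13515 pairs of all genes on a log scale. The member pairs lie within the main cloud, with highest values of 4.22 and 4.07, and none among the few pairs above 5.

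The strongest laccase peak, and the strongest of all members by mean rank, lay in a gene described as putative laccase-9. FvH4_1g20010 had it in intron 2 of 7 on chromosome 1, from 12127250 to 12127493 in replicate 1 and from 12127186 to 12127461 in replicate 2. The fold enrichment there was 4.22 in replicate 1 and 3.76 in replicate 2, or 3.99 ± 0.325 (SD, n = 2). The −log10 q was 23.5 and 19.5, which placed the peak in the top 3.50% of the replicate 1 list and the top 11.0% of the replicate 2 list. The deposited distances to the gene start were 1936 and 1940 bp and thus nearly equal. Of the 4 genes described as putative laccase-9, FvH4_1g20010 was alone in having a shared peak inside its own gene.

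Another putative laccase-9 gene, FvH4_2g12820, was assigned a shared peak that lies in exon 6 of 8 of the neighbouring FvH4_2g12830. The peak runs on chromosome 2 from 11270646 to 11270861 in replicate 1 and from 11270661 to 11270904 in replicate 2, at −3396 and −3452 bp from the laccase start. Its values were unequal, 3.09 in replicate 1 and 4.07 in replicate 2, or 3.58 ± 0.691 (SD, n = 2). The −log10 q was 8.89 and 18.1, and the ranks were the top 46.7% and the top 4.59%. The peak is strong in the replicate 2 list only, and its place in a neighbour's exon makes the link to the laccase one of nearness to the start. The remaining laccase-9 genes had peaks in 1 list each. FvH4_2g12640 had an intron 2 peak of 2.25 in replicate 2, and FvH4_6g39983 had a promoter peak of 3.58 at −1478 bp in replicate 1.

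Both laccase-17-like genes had promoter peaks in both replicates. A promoter peak is one with a deposited distance within 2 kb before the start of its gene. Laccase 17 of Arabidopsis is one of the enzymes needed for lignin deposition in stems. FvH4_3g05920 had its peak on chromosome 3 from 3440163 to 3440395 in replicate 1, at −1501 bp, and from 3440168 to 3440467 in replicate 2, at −1432 bp. Its fold enrichment was 3.51 in replicate 1 and 2.82 in replicate 2, or 3.17 ± 0.483 (SD, n = 2), with −log10 q of 11.2 and 8.12. FvH4_3g34310 had its peak much nearer the start, at −129 and −90 bp, on chromosome 3 from 29815683 to 29815896 and from 29815616 to 29815874. It was weaker, at 2.90 and 2.70, or 2.80 ± 0.136 (SD, n = 2), and its −log10 q was 7.72 and 7.26. These 2 genes carry the same RefSeq protein identifier in their descriptions, the only members to share one. The sources used here do not say how reads that map to several copies were treated, and whether these genes share reads was not tested.

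The third laccase with a promoter peak in both replicates was FvH4_2g09061, described as laccase-11-like. Laccase 11 of Arabidopsis also acts in lignin formation. Its peak had the lowest mean rank of all shared member peaks, on chromosome 2 from 7985820 to 7986186 in replicate 1 and from 7985833 to 7986534 in replicate 2. The fold enrichment was 2.51 in replicate 1 and 2.24 in replicate 2, or 2.37 ± 0.188 (SD, n = 2), in the top 86.4% and 95.6% of the lists. The −log10 q was 4.90 and 5.16. Although the intervals overlap over 354 bp, the deposited distances were −672 and −134 bp, a gap that the longer replicate 2 peak of 702 bp allows. The other gene described as laccase-11-like, FvH4_2g08860, had an intergenic peak of 3.04 at 2105 bp in replicate 1 and none in replicate 2.

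Of the 3 genes described as laccase-14-like, 2 had a shared peak within the gene body. FvH4_2g40270 had a broad exon peak on chromosome 2 from 28724305 to 28724957 in replicate 1, placed in exon 5 of 7, and from 28724030 to 28724912 in replicate 2, placed in exon 6. Its fold enrichment was 2.87 and 3.22, or 3.05 ± 0.245 (SD, n = 2), with −log10 q of 10.1 and 13.3. FvH4_5g30731, described as a low quality protein, spanned its start with separate peaks in replicate 1 and a single long one in replicate 2. Replicate 1 held an exon 2 peak of 3.37 at 408 bp, on chromosome 5 from 21644317 to 21644712, and a promoter peak of 2.38 at −503 bp, from 21645130 to 21645443. Replicate 2 held a peak of 1149 bp that covered both, from 21644329 to 21645477, at 2.99. The −log10 q was 10.8 for the exon peak, 4.57 for the promoter peak and 9.03 for the long peak. Paired with the long peak, the exon peak averaged 3.18 ± 0.269 and the promoter peak 2.68 ± 0.425 (SD, n = 2 each). The long peak overlapped each replicate 1 peak by less than 50% of its own length, so this gene lost its shared peak under reciprocal overlap, and it had no peak in the authors' merged list. FvH4_2g18990, also described as laccase-14-like, had an intron 7 peak of 2.51 in replicate 1.

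The strongest peroxidase peak by mean rank was assigned to FvH4_3g02090, described as peroxidase 42. The gene had a pair of shared peaks, one on each side of the gene start, and both are annotated as 3' UTR. The stronger lay 2879 and 2918 bp downstream of the start, on chromosome 3 from 1063790 to 1064131 in replicate 1 and to 1064119 in replicate 2. Its fold enrichment was 4.15 and 3.74, or 3.94 ± 0.285 (SD, n = 2), and its −log10 q was 18.6 and 16.3. It ranked in the top 4.53% and 11.5% of the lists, second among members after the laccase-9 intron peak. The weaker lay at −2906 and −2905 bp, from 1058011 to 1058233 and from 1058000 to 1058228, at 3.13 and 2.64, or 2.88 ± 0.346 (SD, n = 2). Its −log10 q was 9.92 and 7.10. A 3' UTR upstream of the assigned start belongs to a transcript other than the assigned one, which the lists do not name.

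Peaks in 3' UTRs recurred among the peroxidases. They made up 5 of 34 member peaks in replicate 1 (14.7%) and 5 of 39 in replicate 2 (12.8%), and over all genes 4.19% and 4.26%. Every one of the member peaks was shared, where 511 of the 809 3' UTR peaks of all genes in replicate 1 were. The member peaks belonged to 4 peroxidase genes and to no laccase. FvH4_5g24010 (peroxidase N1-like) had such a peak at −2672 and −2786 bp, again in the UTR of another transcript, on chromosome 5 from 15280709 to 15281029 and from 15280716 to 15281619. It was the most unequal member pair, at 2.19 in replicate 1 and 3.40 in replicate 2, or 2.79 ± 0.856 (SD, n = 2), and in −log10 q, at 4.76 and 15.6. FvH4_6g23750 (described only as peroxidase-like) had one 1016 and 956 bp downstream of its start on chromosome 6, from 17860749 to 17861249 and from 17860717 to 17860974. Its values were 3.04 and 3.17, or 3.10 ± 0.0967 (SD, n = 2), with −log10 q of 9.15 and 11.2. FvH4_6g50150 (peroxidase 63) had one at 1194 and 1207 bp, from 37374972 to 37375342 and from 37374975 to 37375355, at 2.97 and 2.32. Of the 5 peaks in each list, 2 lay upstream of the assigned start (40.0%), where 10.4% of all 3' UTR peaks did in replicate 1 and 11.0% in replicate 2. The count is small and was not tested.

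**Figure D2:**
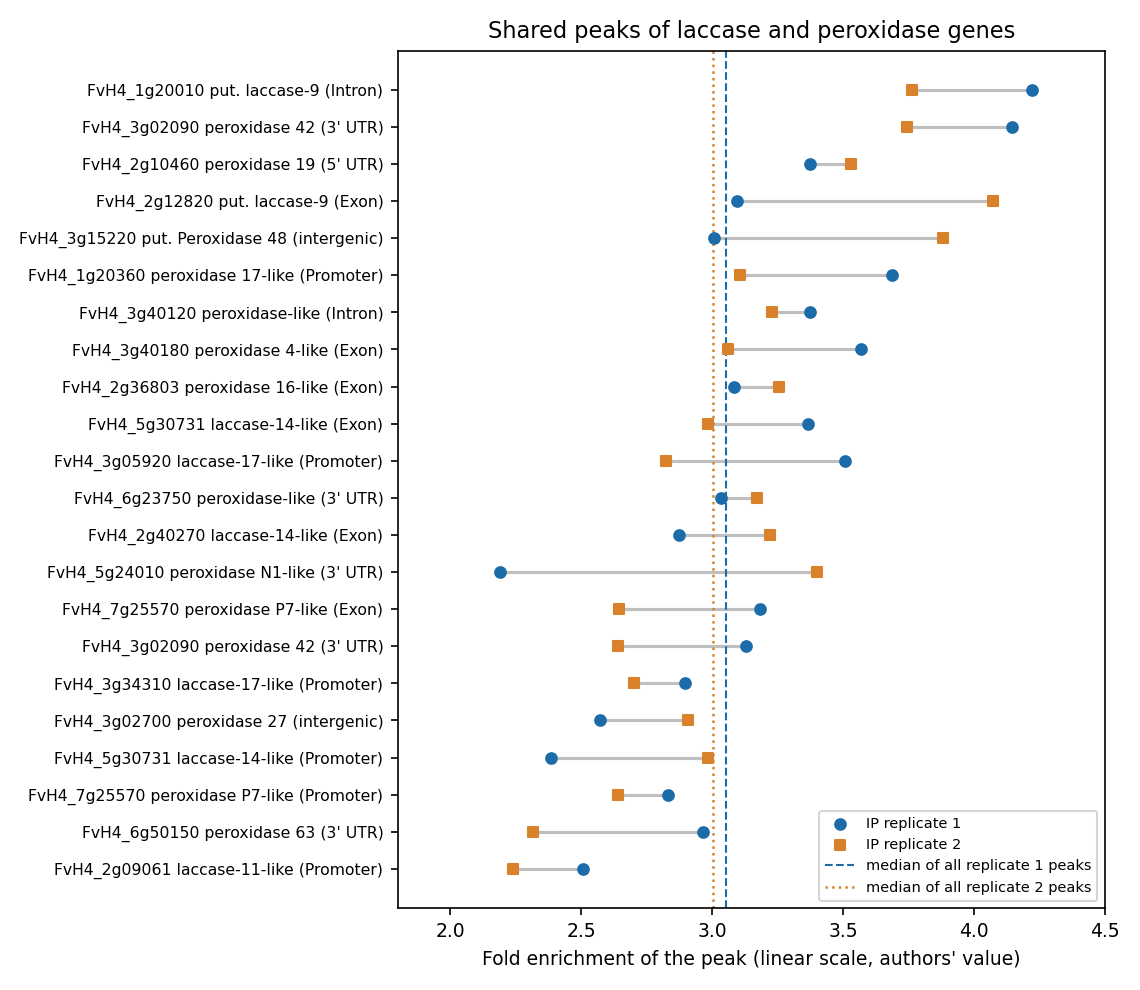
Fold enrichment (linear scale) of the 22 shared peak pairs of laccase and peroxidase genes, ordered by mean rank from the top, with the replicate 1 position class in brackets. Circles are IP replicate 1, squares IP replicate 2, grey lines join a pair, and vertical lines are the medians of all peaks in each list, 3.05 and 3.004. The laccase-9 intron and peroxidase 42 3' UTR peaks stand highest in both replicates together, and peroxidase N1-like has the widest pair, 2.19 and 3.40.

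Peroxidase 17-like was the peroxidase with a promoter peak close to the gene start in both replicates. In Arabidopsis, peroxidase 17 acts in lignified tissue and is reported as a direct target of another MADS-domain factor, AGAMOUS-LIKE 15. FvH4_1g20360 had its peak on chromosome 1 from 12569972 to 12570254 in replicate 1 and from 12570011 to 12570287 in replicate 2, at −211 and −214 bp. Its fold enrichment was 3.69 in replicate 1 and 3.10 in replicate 2, or 3.40 ± 0.412 (SD, n = 2), and its −log10 q was 15.1 and 11.2. Of the 5 members with a promoter peak in both replicates, it was the only one left when peaks had to reach the median fold enrichment of their list or a −log10 q of at least 10. Over all genes the share under these thresholds was 5.75% and 5.54%.

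The other peroxidase of this kind, FvH4_7g25570, carries the description peroxidase P7-like and had a pair of shared peaks on chromosome 7. One lay in the promoter at −1603 and −1560 bp, from 19497216 to 19497450 and from 19497240 to 19497455. It reached 2.83 and 2.64, or 2.73 ± 0.135 (SD, n = 2), with −log10 q of 8.65 and 7.92. The other straddled the start, from 19498801 to 19499204 in replicate 1 and from 19498752 to 19499242 in replicate 2. It reached 3.18 and 2.64, or 2.91 ± 0.380 (SD, n = 2), with −log10 q of 13.1 and 9.87. The authors' annotation put this peak in exon 1 at 141 bp in replicate 1 and in the promoter at −96 bp in replicate 2. In the merged list it is a 5' UTR peak at 49 bp, so its class rests on where within the peak the distance was taken. The second gene described as peroxidase P7-like, FvH4_6g27610, was in both lists without a shared peak. Its replicate 1 peak was intergenic at 6623 bp with a value of 3.65, and its replicate 2 peak lay in the promoter at −1731 bp with 3.17.

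In all, 5 of the 43 members (11.6%) had promoter peaks in replicate 1 and replicate 2 alike, where 13.7% of all genes did. With a 3 kb promoter the order turned, at 20.9% of the members and 16.7% of all genes. The members added were FvH4_2g36803, FvH4_3g02090, FvH4_3g02700 and FvH4_5g24010. Apart from the intergenic peak of FvH4_3g02700, their added peaks lay in an exon or 3' UTR of another gene or transcript. The 5 members found with the 2 kb promoter were 3 of 18 laccases and 2 of 25 peroxidases. Within a single list the members had promoter peaks in 10 cases in replicate 1 (23.3%, over all genes 21.0%) and 12 in replicate 2 (27.9%, over all genes 23.4%). A promoter peak in either list was present for 17 members (39.5%, over all genes 30.7%). Promoter peaks in a single list only were found for 12 members (27.9%, over all genes 17.0%). They include FvH4_3g39750 (laccase-13), FvH4_6g12410 (laccase-7-like), FvH4_4g25120 (peroxidase 5-like) and FvH4_5g21800 (cationic peroxidase 2-like). Also among them are FvH4_3g15220, with 3.05 at −1410 bp in replicate 1, and 2 genes in replicate 2. The latter are FvH4_3g15230, with 2.62 at −269 bp, and FvH4_6g23750, with 3.11 at −333 bp.

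Peaks just inside the gene were found in both replicates for 2 further peroxidases. FvH4_2g10460 (peroxidase 19) had a 5' UTR peak on chromosome 2 from 9285866 to 9286158 in replicate 1 and from 9285871 to 9286171 in replicate 2, at 250 and 120 bp. Its values were close, 3.37 and 3.53, or 3.45 ± 0.111 (SD, n = 2), with −log10 q of 11.6 and 13.4. It was the only 5' UTR peak of any member in the replicate lists. FvH4_3g40180 is described as peroxidase 4-like, and peroxidase 4 of Arabidopsis has been linked to lignin formation. It had a peak in exon 1 of 4 on chromosome 3, from 33956232 to 33956646 and from 33956221 to 33956610, at 3.57 and 3.06, or 3.31 ± 0.360 (SD, n = 2). The −log10 q was 11.9 and 9.90. Another 4 peroxidases had a peak in exon 1 of 4 in replicate 2 alone, at 143 to 456 bp from the start. These were FvH4_2g06860 (peroxidase 10) at 3.70, FvH4_1g15550 (peroxidase 10-like) at 3.27, FvH4_4g28690 (peroxidase 11) at 2.94 and FvH4_1g12490 (peroxidase 72-like) at 2.55. Peroxidase 72 of Arabidopsis acts in lignification. First exons held 5 of 39 member peaks in replicate 2 (12.8%), near the 10.5% of all replicate 2 peaks. In replicate 1 they held 2 of 34 member peaks (5.88%), below the 9.85% of all replicate 1 peaks.

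FvH4_3g40180 is 1 of 3 peroxidase members that lie close together on chromosome 3. FvH4_3g40120 (peroxidase-like) had an intron 2 peak in both replicates, from 33925712 to 33926102 and from 33925752 to 33926558, at 3.37 and 3.23, or 3.30 ± 0.102 (SD, n = 2), with −log10 q of 12.2 and 12.6. The peaks of these neighbours are 29.7 kb apart. A further 25.1 kb away, FvH4_3g40081 (cationic peroxidase 1-like) had a replicate 2 peak of 2.93 that lies in exon 13 of the adjoining FvH4_3g40080. Elsewhere on chromosome 3, the adjoining FvH4_3g15220 and FvH4_3g15230 are both described as putative peroxidase 48. FvH4_3g15220 had a shared intergenic peak 4647 and 4542 bp from its start, from 9456452 to 9456727 and from 9456398 to 9456754, at 3.01 and 3.88, or 3.45 ± 0.620 (SD, n = 2). The −log10 q was 10.02 and 17.8. A peak of FvH4_3g15230 begins 1.03 kb further on in replicate 2 alone, at 3.68. Chromosome 3 held 11 of the 43 members and chromosome 2 held 10. All genes with a peak were not counted by chromosome, so these numbers cannot show a concentration of members.

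The remaining peroxidases with a shared peak had it upstream of the promoter. FvH4_2g36803 (peroxidase 16-like) had one at −2786 and −2775 bp, on chromosome 2 from 26890977 to 26891194 and from 26890952 to 26891164. Its values were 3.08 and 3.26, or 3.17 ± 0.123 (SD, n = 2), with −log10 q of 11.6 and 14.3, and it lies in exon 2 of the neighbouring FvH4_2g36802. It also had a promoter peak of 2.82 at −479 bp in replicate 2 alone. FvH4_3g02700 (peroxidase 27) had an intergenic peak at −2559 and −2590 bp on chromosome 3, from 1375463 to 1375743 and from 1375430 to 1375754, at 2.57 and 2.91. A peroxidase called FaPRX27 in cultivated strawberry has been linked to lignin and fruit colour, and whether FvH4_3g02700 is its counterpart was not analysed here.

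By position class, promoters held 29.4% of the member peaks in replicate 1 and 33.3% in replicate 2, where they held 20.8% and 20.7% of all peaks. Exons held 26.5% and 25.6% of member peaks, and 24.3% and 25.7% of all peaks. The 5' UTR share was 2.94% and 2.56% among members, and 9.04% and 8.50% among all peaks. Intergenic peaks were 11.8% and 12.8% of member peaks, and 22.2% in both lists over all genes. The laccase peaks were in promoters, exons, introns and intergenic positions, with 0 of 16 and 0 of 11 in a UTR. None of these shares was tested. Gene assignment was less direct for the members than in the lists as a whole. Of their exon and intron peaks, 5 of 14 in replicate 1 (35.7%) and 3 of 15 in replicate 2 (20.0%) lay in a gene other than the assigned one, where 7.67% and 7.68% of all such peaks did. Besides those named above, FvH4_7g07750 (laccase-12-like) had 2 such replicate 1 peaks in exons 24 and 26 of FvH4_7g07740, and FvH4_1g24380 (laccase-15-like) had 1 in an intron of FvH4_1g24390, described as the RNA-binding protein LSM5.

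**Figure D3:**
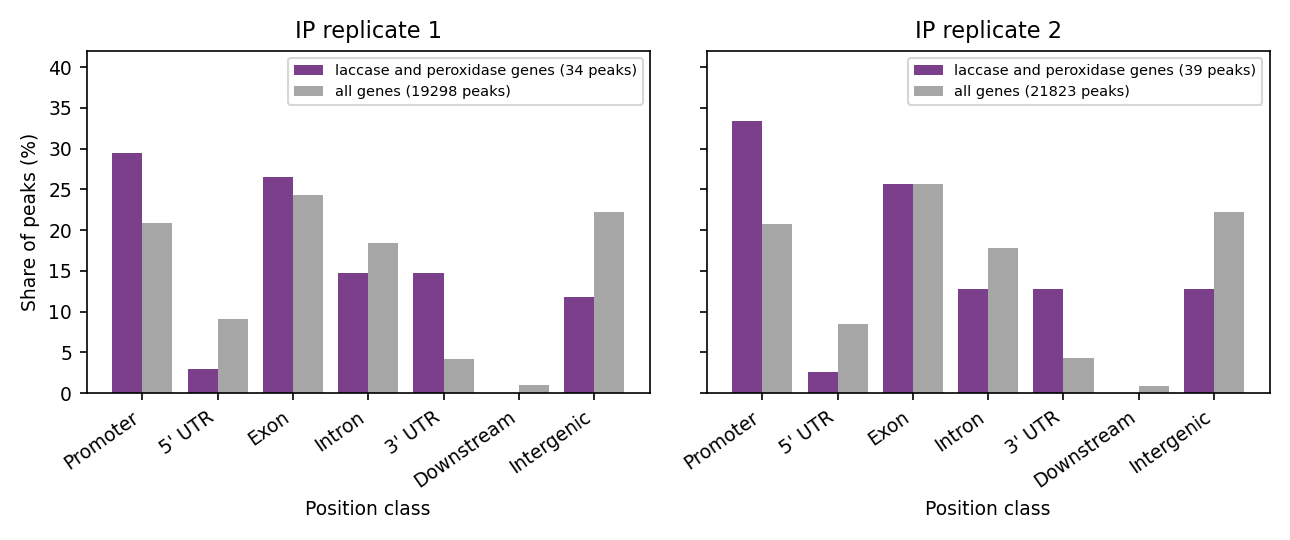
Share of peaks (%) in each position class of the authors' annotation, for laccase and peroxidase genes (purple) and all genes (grey), in IP replicate 1 on the left and IP replicate 2 on the right. Bars start at 0. Members stand above all genes for promoters (29.4% and 33.3% against 20.8% and 20.7%) and 3' UTRs, and below for 5' UTRs and intergenic positions, in both lists.

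**Figure D4:**
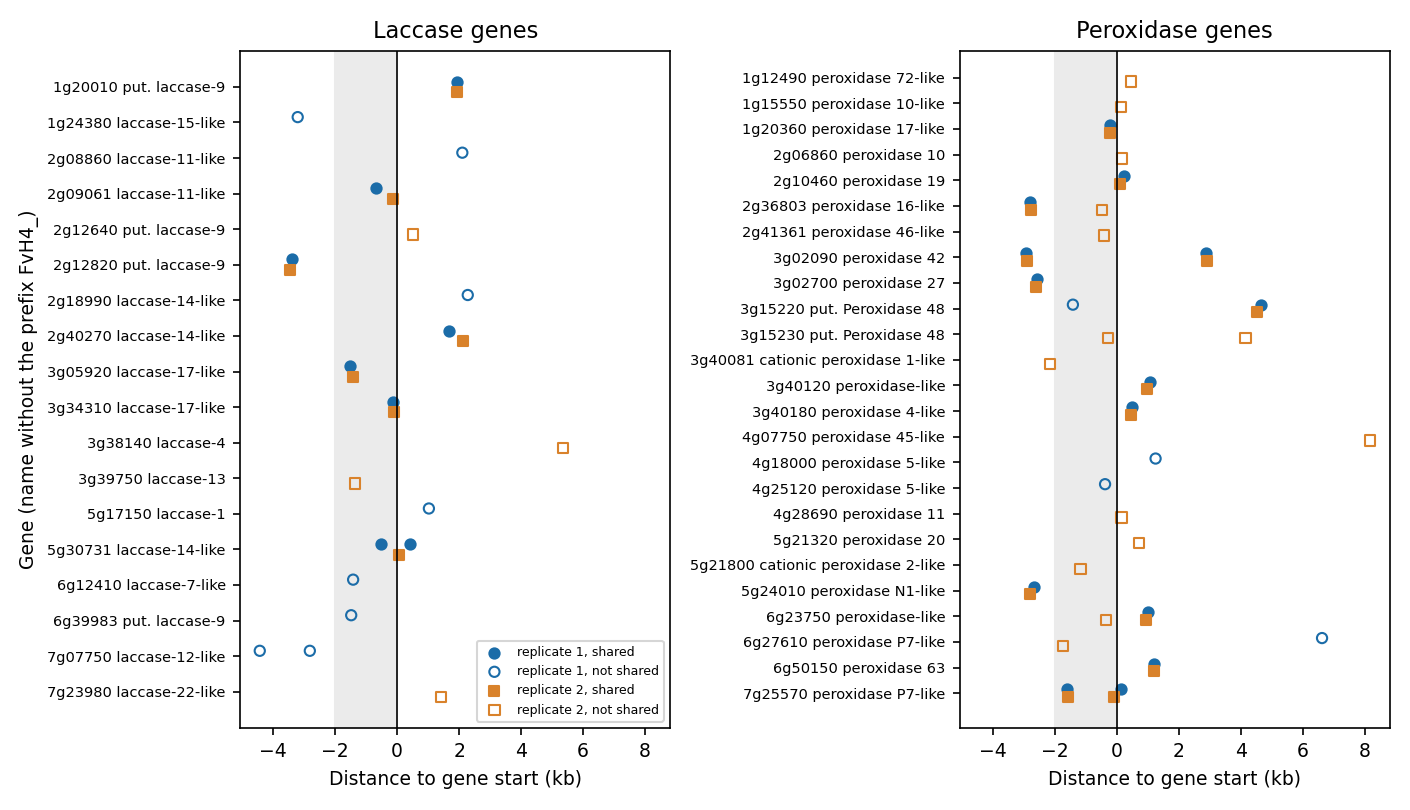
Deposited distance of every member peak to its gene start (kb), with 18 laccase genes on the left and 25 peroxidase genes on the right. Circles are IP replicate 1, squares IP replicate 2, filled symbols shared peaks and open symbols peaks without a shared partner, and the grey band is the 2 kb promoter. Filled symbols stand in 19 of the 43 rows. First exons hold 5 of the 39 replicate 2 peaks (12.8%, over all genes 10.5%) and 2 of the 34 replicate 1 peaks (5.88%, over all genes 9.85%).

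Of the 43 members, 23 (53.5%) had peaks in a single list, and over all genes the share was 37.2%. In replicate 1, 9 such genes had 10 peaks, with fold enrichments of 2.42 to 3.88 and a median of 2.79. In replicate 2, 14 such genes had 15 peaks, of 2.23 to 3.70 with a median of 2.93. The 5 strongest, by place in their list, were not weak peaks. FvH4_7g07750 (laccase-12-like) led with 3.88 in replicate 1, in the top 8.93% of that list, at −4426 bp. The peroxidase 10 exon peak named above (top 12.8%), the FvH4_3g15230 intergenic peak (top 13.5%), the promoter peak of FvH4_2g41361 (peroxidase 46-like) with 3.61 at −402 bp (top 16.0%) and the FvH4_6g39983 promoter peak (top 18.6%) followed. The others were FvH4_5g17150 (laccase-1), FvH4_3g38140 (laccase-4), FvH4_7g23980 (laccase-22-like), FvH4_4g07750 (peroxidase 45-like), FvH4_4g18000 (peroxidase 5-like) and FvH4_5g21320 (peroxidase 20), beside those already named. Laccase 4 of Arabidopsis acts with laccase 17 in lignification, and the peak assigned to FvH4_3g38140 was intergenic at 5341 bp with a value of 2.24. For FvH4_4g07750 the single list is a matter of assignment. Its replicate 2 peak of 2.23 at 8176 bp overlaps a replicate 1 peak of 2.69 that was assigned to the neighbouring FvH4_4g07760.

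The same pathway upstream and beside these enzymes was read from descriptions in the same way. Monolignol synthesis, which makes the precursors that laccases and peroxidases oxidise, had shared peaks in 20 of 35 genes (57.1%) and promoter peaks in both replicates in 6 (17.1%). The 6 were FvH4_1g14010 and FvH4_1g14011 (caffeoyl-CoA O-methyltransferases), FvH4_1g29330 (cytochrome P450 98A2), FvH4_3g44440 (shikimate O-hydroxycinnamoyltransferase-like), FvH4_5g26030 (cinnamoyl-CoA reductase 2-like) and FvH4_5g37450 (cytochrome P450 84A4-like). The words for trans-cinnamate 4-monooxygenase matched 0 genes with a peak. Dirigent proteins, respiratory burst oxidases, casparian strip proteins and multicopper oxidase relatives of laccases together had shared peaks in 14 of 32 genes (43.8%) and promoter peaks in both replicates in 6 (18.8%). Those were FvH4_2g26081 and FvH4_3g44751 (dirigent proteins), FvH4_2g37780, FvH4_3g46080 and FvH4_6g22853 (described as ascorbate oxidases or homologs) and FvH4_7g27730 (SKS1). Of the 4 casparian strip protein genes, 0 had a shared peak. The ascorbate and glutathione peroxidases, which act inside the cell and were kept out of the members, had shared peaks in 4 of 6 genes and promoter peaks in both replicates in 0. For comparison, 44.2% of the members and 58.6% of all genes had a shared peak. The promoter shares to set beside 17.1% and 18.8% were 11.6% (members) and 13.7% (all genes). No difference between these lists was tested. With shared peaks required to reach the median fold enrichment or a −log10 q of at least 10, 8 of the 43 members (18.6%) were left. Over all genes 27.3% and 26.1% were left. Monolignol synthesis kept 14 and 13 of its 35 genes. The dirigent proteins and the other wall proteins named with them kept 2 of 32 under each threshold. The ascorbate and glutathione peroxidases kept 1 and 2 of 6.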

How the data were processed

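Peaks came from 3 deposited tables, the lists of both IP replicates and the authors' merged list, and no table of the input was used. Per the submitters' processing notes, the tools were BWA for alignment and MACS2 for peak calling. Their settings are not stated in the sources used here. For every peak the authors deposited a fold enrichment, which is a ratio of signal to background, and a −log10 q-value next to a −log10 p-value. The gene assignment, position class and distance were the authors' deposited annotation, and the point of the peak from which distance was taken is not stated. No read counts were held, so depth and its precision are unknown.

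Peaks, gene shares and medians were computed with Python 3.11.15, pandas 2.3.3 and numpy 2.4.6. The overlap code was tested on simulated peaks with known pairs. On the authors' replicate lists it gave 13597 overlapped replicate 1 peaks, as did bedtools 2.31.1. Fold enrichment ranked peaks within a list only, and mean ± SD describes the 2 deposited values. With 2 IP samples and no second group no test was run. Members were chosen with earlier results of these data known, as were the comparison lists. Every member with a shared peak is named, with full values for laccases, members with promoter peaks in both replicates or several shared peaks, and the 10 best ranked peroxidase peaks, together with the 5 strongest of 1 list. Other named members were chosen after their values were seen. The RefSeq gene table matched the protein identifiers of 35 of the 43 members and was used for nothing else. Alternatives were overlap rules, stricter peak thresholds, promoter widths, the merged list and each replicate alone.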

Additional observations from a re-analysis of the deposited data

How the results depend on the processing

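The 43 members stayed 43 on chromosomes without contigs and numbered 29 to 34 on a single replicate. Against 19 members with a shared peak, 15 had one with 50% reciprocal overlap (34.9%, over all genes 54.1%), 13 with midpoints within 100 bp (30.2%, over all genes 51.9%) and 19 had a peak in the merged list (44.2%, over all genes 58.3%). Both stricter thresholds, the median fold enrichment and a −log10 q of at least 10, gave 8 members (18.6%, over all genes 27.3% and 26.1%), and a single replicate, which asks only for any peak, gave 29 to 34. Other alternatives were chosen after seeing the data. When the partner peak could belong to any gene, 20 members had a shared peak (46.5%, over all genes 59.7%). Without peaks in an exon or intron of another gene there were 17 (39.5%, over all genes 57.1%). Without putative and low quality descriptions there were 15. The shares, 34.9% and over all genes 56.1%, still count the genes left out in their totals, so they fall by construction. The planned removal of descriptions that name no enzyme removed 0 members. FvH4_1g20360, FvH4_2g10460 and FvH4_3g02090 were retained under all 11 alternatives, not all of which could drop a gene. Each single replicate and a partner peak of any gene retain every gene with a shared peak by construction. The planned removal of descriptions took out 0 members. Promoter peaks in both replicates, found for 5 members, were left in 3 with a 1 kb promoter (6.98%, over all genes 8.63%) and in 1 with either stricter threshold (2.33%, over all genes 5.75% and 5.54%). A 3 kb promoter gave 9 members and put their share above that of all genes (20.9%, over all genes 16.7%), as did a single replicate, with 10 to 12 members (23.3% and 27.9%, over all genes 21.0% and 23.4%). With 500 bp of the gene added to the 2 kb there were 7 members (16.3%, over all genes 27.5%). The median fold enrichment of the shared pairs, 3.14, became 3.17 with reciprocal overlap. Over all member peaks of a single replicate, shared or not, the median was 2.99 to 3.04. Among shared peaks the promoter share was 27.3% (over all genes 20.3%), the 3' UTR share 22.7% (over all genes 3.80%) and the intergenic share 9.09% (over all genes 21.5%). The gene body share, of 5' UTR, exon, intron and 3' UTR together, was 63.6%, and it was not computed over all genes. Its other parts were 5' UTR (4.55%, over all genes 9.37%), exon (27.3%, over all genes 26.1%) and intron (9.09%, over all genes 18.0%). It counts peaks in another gene or transcript upstream of the assigned start, for FvH4_2g12820, FvH4_2g36803, FvH4_3g02090 and FvH4_5g24010. A single replicate counts all its member peaks, shared or not, which is a different set of peaks. There the promoter share was 29.4% to 33.3%, the gene body share 53.8% to 58.8%, the 3' UTR share 12.8% to 14.7% and the intergenic share 11.8% to 12.8%. Among shared peaks without those in an exon or intron of another gene, the gene body share was 60.0%, the 3' UTR share 25.0% and the intergenic share 10%. That filter kept the 3' UTR peaks of FvH4_3g02090 and FvH4_5g24010 that lie upstream of the assigned start, in another transcript. The settings of a single replicate and of stricter thresholds ask for fewer or more peaks by construction. Unknown depth limits what a peak absent from 1 list can show. No paired analysis was possible because the result comes from no test and the label of the input gives no replicate number.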
